A study of Mus musculus with 28 samples.

Results

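Macrophages sorted from the embryonic brain at E10.5 (E10.5 microglia) were compared with macrophages sorted from the yolk sac at the same age (YSM). The members are the arrays that the labels assign to these groups, 3 of E10.5 microglia and 4 of YSM, so 7 of the 28 samples of a series that runs from the yolk sac through brain microglia of the embryo and of the day of birth (P0) to the adult, and that holds 25 distinct arrays. Both groups came from C56BL/6 mice, as the labels spell the strain, at E10.5, and the labels give them no genotype and no treatment. The headings of the deposited E10.5 brain columns read WT, and those of the YSM columns carry no such mark. By the study's methods, cells of both tissues passed the same flow cytometry gate (CD45low, CD11b+, CD64+, Ly6C- and positive for the macrophage antigen that Adgre1 encodes), and each array held RNA pooled from several animals, with no selection by sex. Transcripts were measured on Illumina mouse bead arrays, and levels below are background-corrected, quantile-normalized log2 intensities. Differences are E10.5 microglia minus YSM on that scale, with the standard error of the fit after ±, and a gene was called at a limma adjusted p under 0.05 over the 10630 genes measured.

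Microglia are the macrophages of the brain. Their founders arise in the blood islands of the yolk sac from erythro-myeloid progenitors, enter the circulation and the head of the embryo, and there take on a set of genes that marks microglia off from other macrophages, among them Tmem119, P2ry12, Gpr34 and Sall1. The comparison at E10.5 sets the cells that are already in the brain beside those that are still in the yolk sac, an organ made of visceral endoderm, mesoderm, vessels and primitive red cells.

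The labelled cell type was checked against its defining markers. Of 9 measured markers of macrophages and of the sort, all 9 were detected on each E10.5 array and 8 or 9 on each YSM array, and their summed level lay between 33150 and 40610 on the E10.5 arrays and between 28640 and 35180 on the YSM arrays. Ly6c1 and Ly6c2, which the gate excludes, had no measured probe. Markers of other cells of the yolk sac were not evenly spread over the YSM arrays. The summed level of 8 markers of visceral endoderm and epithelium lay between 199 and 1876 on the E10.5 arrays, against 470 on YSM 1 and between 5963 and 34600 on YSM 2, YSM 3 and YSM 4. For 6 markers of red cells it lay between 6293 and 24750 on the E10.5 arrays, against 3573 on YSM 1 and between 76680 and 90020 on the other 3 YSM arrays. Markers of neutrophils and monocytes were present in both groups, with 5 or 6 of 6 detected on each array. Their summed level lay between 12310 and 32210 on the E10.5 arrays and between 25850 and 34530 on the YSM arrays. Whether such cells were among those sorted was not tested. YSM 1 had a mean correlation with the E10.5 arrays (r = 0.978 across genes) above that with the other YSM arrays (0.968), whereas YSM 2, YSM 3 and YSM 4 correlated better with their own group. The background of the arrays lay between 123.8 and 146.6 in E10.5 microglia and between 63.9 and 73.4 in YSM, with no overlap, so that background and tissue cannot be told apart by the design. In pooled bulk RNA, fewer cells of a type and less RNA per cell cannot be told apart either.

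**Figure D1:**
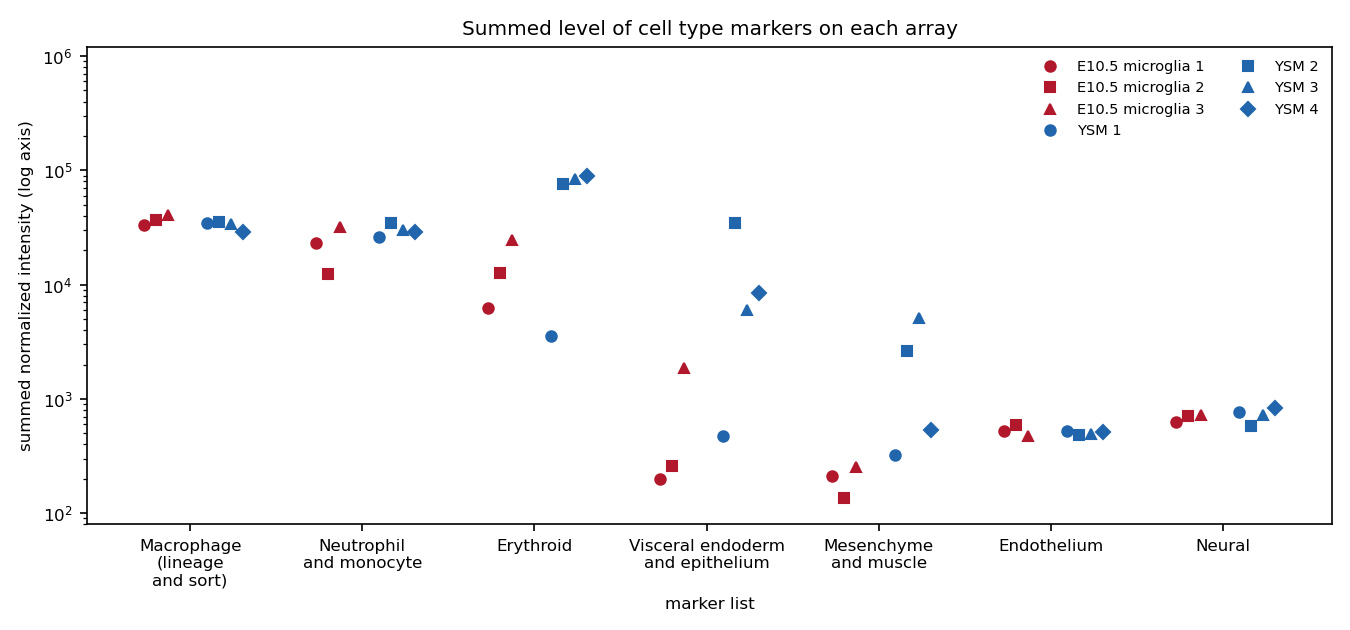
Summed normalized intensity (log axis) of cell type markers, each point 1 array, E10.5 microglia in red and YSM in blue. Macrophage markers lay at like levels on all 7 arrays, whereas endoderm markers reached 34600 on YSM 2 and red cell markers 90020 on YSM 4, with YSM 1 at 470 and 3573.

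Promoters of 4 genes that hold the letters marked below are shown as examples. They are 2 genes higher in E10.5 microglia, of which F11r is from the adhesion genes, and 2 yolk sac endoderm genes. They run from 250 bases before to 50 bases after the start in RefSeq (GRCm38.p6). P2ry13 encodes an ADP receptor of microglia and F11r the junctional adhesion molecule JAM-A, and the letters GAGGAA, a core that ETS factors such as PU.1 bind, are in capitals. On either strand, 28.3% of all 32851 promoters of that length hold GAGGAA. Counted by gene, 31.3% of 27025 genes held it in any of their promoters, and 6 of the 15 matched homeostatic microglia genes did. Afp encodes alpha-fetoprotein and Apoa1 the main protein of high-density lipoprotein, and the letters TGTTTGC, a core bound by FOXA factors, are in capitals. TGTTTGC was in 5.07% of all promoters. Counted by gene, it was in 5.76% of all genes and in 2 of the 19 matched endoderm genes, which are the 2 shown. P2ry13 lies at chr3:59210833-59211132 (minus strand), F11r at chr1:171437311-171437610 (plus strand), Afp at chr5:90490464-90490763 (plus strand) and Apoa1 at chr9:46228380-46228679 (plus strand).
P2ry13: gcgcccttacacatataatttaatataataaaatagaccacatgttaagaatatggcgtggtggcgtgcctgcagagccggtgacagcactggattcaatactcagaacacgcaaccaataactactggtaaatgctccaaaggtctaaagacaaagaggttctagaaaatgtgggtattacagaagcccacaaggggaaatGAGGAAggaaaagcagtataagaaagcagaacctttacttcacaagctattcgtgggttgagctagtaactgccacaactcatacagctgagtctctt
F11r: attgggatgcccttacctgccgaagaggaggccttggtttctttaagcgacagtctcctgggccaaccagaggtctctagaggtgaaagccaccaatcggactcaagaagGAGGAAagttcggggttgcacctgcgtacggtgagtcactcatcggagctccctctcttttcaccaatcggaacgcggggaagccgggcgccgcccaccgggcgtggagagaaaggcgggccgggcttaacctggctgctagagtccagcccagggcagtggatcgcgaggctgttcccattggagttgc
Afp: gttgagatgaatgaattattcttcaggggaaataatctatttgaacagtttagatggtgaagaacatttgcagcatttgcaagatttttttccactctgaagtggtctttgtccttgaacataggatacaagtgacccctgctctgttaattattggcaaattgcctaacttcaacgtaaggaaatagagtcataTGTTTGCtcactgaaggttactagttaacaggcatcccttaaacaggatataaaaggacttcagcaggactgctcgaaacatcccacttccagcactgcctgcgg
Apoa1: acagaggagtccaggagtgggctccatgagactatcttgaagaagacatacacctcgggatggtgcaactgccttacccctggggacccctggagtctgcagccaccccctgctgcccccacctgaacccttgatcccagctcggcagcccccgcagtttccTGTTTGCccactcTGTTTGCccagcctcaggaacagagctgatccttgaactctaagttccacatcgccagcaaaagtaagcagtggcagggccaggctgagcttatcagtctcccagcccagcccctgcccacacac

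Of the 10630 genes, 1068 (10%) were higher and 1011 (9.51%) lower in E10.5 microglia, 19.6% in all, and 8551 did not pass. The median difference over all genes was -0.03. Most changes were small. By the fitted differences, 265 called genes were at least 2-fold higher and 316 at least 2-fold lower, and 6 were at least 4-fold higher against 46 at least 4-fold lower. Calls were spread over all levels, with 21% of the 3544 dimmest genes by mean level, 20.5% of the 3543 in the middle and 17.2% of the 3543 brightest. For 150 of the genes called higher the YSM probe lay below background on every array, and for 278 of the genes called lower the E10.5 probe did. Such genes are described by a bound on the fold ("at least") taken from each array's own lowest detected signal, or by the levels alone where this bound came to less than 1. The bound is not the smallest fold under every floor. With a floor of 6.75 common to all arrays, differences were smaller than the bound in genes such as Wee1 (-0.293) and Pnpt1 (-0.551). The 3 and 4 values of the groups did not overlap in 29.5% of all genes.

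**Figure D2:**
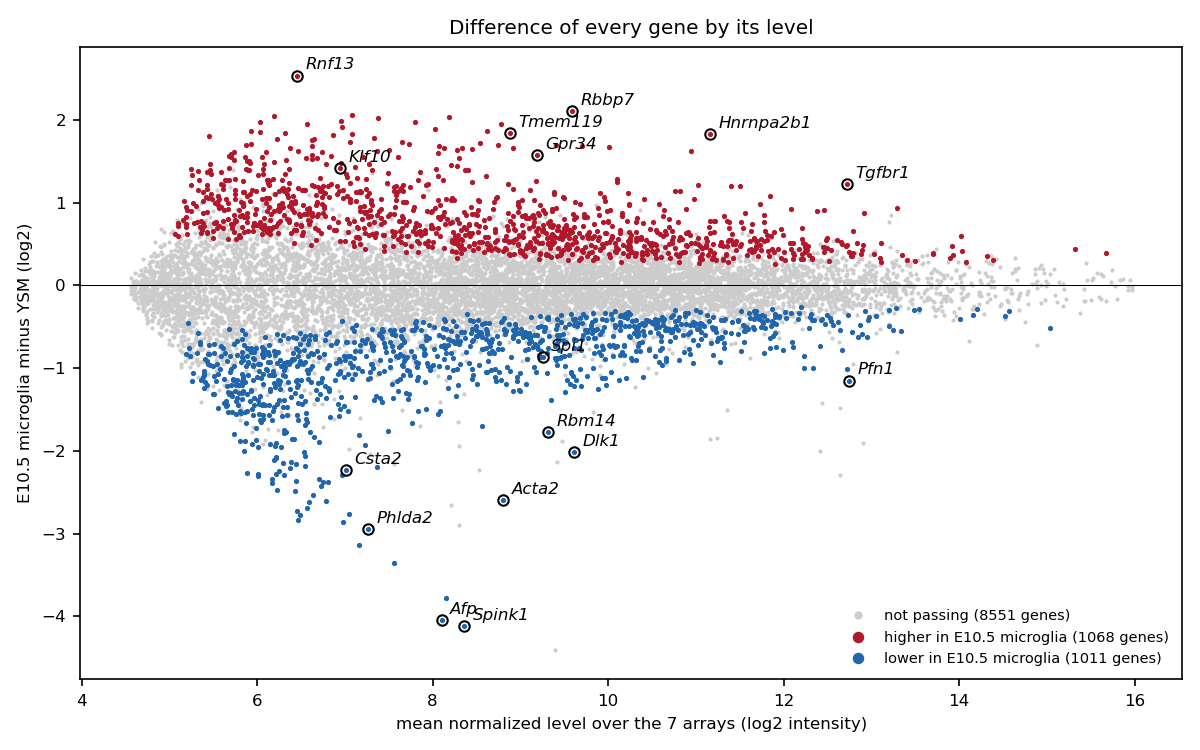
Difference of each of the 10630 genes (E10.5 microglia minus YSM, log2) against its mean level over the 7 arrays (log2 intensity), with the 1068 genes called higher in red and the 1011 called lower in blue. The deepest called fall, -4.11 for Spink1, was longer than the tallest rise, 2.53 for Rnf13.

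Single arrays weighed on the calls. Without YSM 3 there were 1337 calls, the fewest with a YSM array left out, and without E10.5 1 there were 1249, the fewest with any array left out. YSM 3 was the lowest of the 7 arrays in 52.9% of the genes called higher, against 28.6% for YSM 4, 12.7% for YSM 2 and 5.81% for YSM 1. Over all genes these shares were 17.1%, 18.8%, 14.2% and 8.31%. It was the highest in 40.7% of the genes called lower, against 36.1% for YSM 4, 17.1% for YSM 2 and 6.13% for YSM 1. Over all genes these were 17.7%, 27.5%, 9.99% and 7.38%. The shares over all genes are no like baseline, since a brain array can also be the extreme one there. The median difference of the genes called higher was 0.52 when E10.5 microglia were set against YSM 1 alone, 0.57 against YSM 2, 0.89 against YSM 3 and 0.75 against YSM 4. Of the 2079 calls, 921 (517 higher and 404 lower) remained called with each of the 7 arrays left out in turn. The genes described below kept their calls with each array left out, except where an array is named.

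Other settings ended calls as well. Of the 115 called genes named here, 60 lost their call under the methods' Tukey comparison, which corrects for all pairs of groups, and 55 kept it. The main fit takes the same spread for every group of the series. Correlations between arrays lay between 0.966 and 0.974 within YSM and between 0.984 and 0.988 within E10.5 microglia. Standard errors and p-values of genes that were uneven on the YSM arrays may therefore be too small. When the 7 arrays were processed alone, normalization, filter, spread and the choice of each gene's brightest probe were taken from them only. The calls that ended or turned were then those of Acta2, Adcy7, Afp, Amn, Apoa1, Ass1, Clec10a, Cst3, Cubn, Dlk1, Elmo1, Fga, Foxa3, Gstm1, Irf8, Klf1, Krt18, Ltbp3, Nsdhl, Olfml3, Phlda2, Pilrb1, Prdx3, Ptprc, Reln, Sall3, Siglech, Sox11, Sparc, Spink1, Srsf10, Top2a, Trib3 and Vil1. Under a floor common to all arrays they were those of Arg1, Asl, Ass1, Btg2, Cavin3, Clec10a, Col3a1, Ctps2, Dlk1, Ebf3, Foxa3, Il6, Krt18, Ltbp3, Plxna2, Ptgs2, Reln, Rtn4rl1, Rxra, Slc2a5, Sox11, Stmn2, Trim71 and Vil1. Scaling to the 75th percentile ended those of Arg1, Cst3, Elmo1, Reln and Stmn2, and both the authors' table and quantile normalization without background correction ended those of Reln, Sox11 and Stmn2. Array weights ended those of Cst3, Reln and Siglech, trended and robust variances those of Dlk1 and Sox11, the absence of a detection filter that of Dlk1 and an offset of 50 that of Reln.

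Genes of mature, homeostatic microglia had the largest share of rises among the lists counted. Of 20 measured members, 11 were higher, 1 was lower and 8 did not pass (60% called, against 19.6% of all genes), with a median difference of 0.76. The median was 0.43 against YSM 1 alone, 0.76 against YSM 2, 0.60 against YSM 3 and 0.62 against YSM 4, and the 7 arrays processed alone gave 7 rises and the Tukey comparison 5. Tmem119, a membrane protein used as a marker of microglia, stood at 9.80, 9.97 and 10.01 on the E10.5 arrays, against 8.81, 7.03, 8.26 and 8.25 on the YSM arrays (1.84 ± 0.28, adjusted p = 0.000239). Gpr34, a receptor for lysophosphatidylserine, stood at 9.79, 10.05 and 10.42 on the E10.5 arrays, against 8.78, 8.77, 8.27 and 8.25 on the YSM arrays (1.57 ± 0.19, adjusted p = 3.05e-05), and a second probe of the gene gave 1.49. All 3 brain arrays lay above all 4 yolk sac arrays in both genes.

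Olfml3, a secreted olfactomedin-like protein, showed the same separation with more spread, at 9.25, 9.66 and 10.23 on the E10.5 arrays, against 8.81, 6.82, 8.70 and 7.76 on the YSM arrays (1.69 ± 0.34, adjusted p = 0.00194), a call that ended with the 7 arrays alone and under the Tukey comparison. P2ry13 stood at 10.95, 11.13 and 11.40 on the E10.5 arrays, against 10.30, 10.09, 10.03 and 10.57 on the YSM arrays (0.91 ± 0.16, adjusted p = 0.000735). Rtn4rl1, a Nogo receptor homologue, was dimmer, at 6.84, 7.15 and 7.14 on the E10.5 arrays, against 6.41, 4.92, 5.42 and 5.47 on the YSM arrays (1.49 ± 0.30, adjusted p = 0.00201). In each of these genes YSM 1 or YSM 4 was the yolk sac array nearest to the brain.

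Golm1, a Golgi membrane protein, also rose (0.75 ± 0.14, adjusted p = 0.00106), and the remaining calls of the list were less secure. Siglech, a sialic acid-binding lectin, differed by 0.91 and overlapped between the groups, and its call ended without any one of YSM 3, YSM 4 and E10.5 3 (differences between 0.58 and 0.86, adjusted p between 0.0505 and 0.168). Its second probe gave 1.76 and another 0.01. The call of Sall3 (0.85), a zinc finger relative of Sall1, ended without any one of YSM 2 and E10.5 1 (differences between 0.62 and 0.76, adjusted p between 0.0527 and 0.0814). That of Sparc (0.78), a matricellular protein, ended without any one of YSM 1, YSM 4, E10.5 2 and E10.5 3 (differences between 0.56 and 0.84, adjusted p between 0.0612 and 0.148). That of Cst3 (0.36), the cysteine protease inhibitor cystatin C, ended without any one of YSM 4 and E10.5 3 (differences between 0.28 and 0.30, adjusted p between 0.0535 and 0.116). Without such calls, 7 of the 20 genes remained higher with each array left out.

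Other hallmark genes of microglia did not pass. P2ry12, the ADP receptor that guides microglial processes, averaged 9.61 ± 0.19 in E10.5 microglia and 9.85 ± 0.22 in YSM (SD, n = 3 and 4), with a difference of -0.24 ± 0.16, adjusted p = 0.301. The transcription factor Sall1 averaged 7.52 ± 0.22 in E10.5 microglia and 7.25 ± 0.19 in YSM (0.27 ± 0.22, adjusted p = 0.425). The fractalkine receptor Cx3cr1 averaged 13.71 ± 0.13 in E10.5 microglia and 12.86 ± 0.34 in YSM (0.85 ± 0.34, adjusted p = 0.0901). In Cx3cr1 the groups did not overlap, and YSM 3 lay at 12.36, below the other YSM arrays. With the 7 arrays processed alone Cx3cr1 passed as higher. Slc2a5, a fructose transporter, was the 1 gene of the list called lower, with 4.96 in E10.5 microglia and 6.17 in YSM (adjusted p = 0.00953). No E10.5 array was above background, the bound on its fold came to less than 1, and under the common floor the difference was gone.

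**Figure D3:**
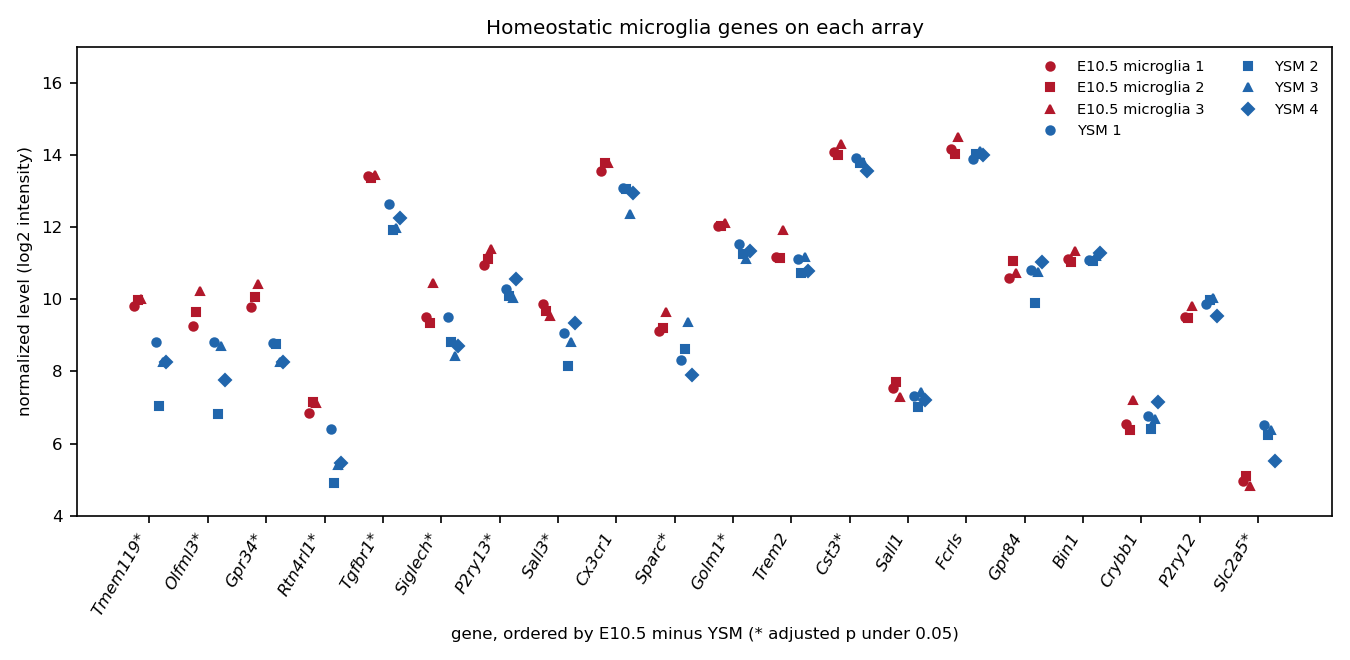
Normalized level (log2 intensity) of the 20 measured homeostatic microglia genes on each array, E10.5 microglia in red on the left and YSM in blue on the right of each gene. In Tmem119, Gpr34, P2ry13 and Tgfbr1 every brain array lay above every yolk sac array, whereas P2ry12 and Sall1 overlapped.

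Levels at later stages stand here only as values, since they share the E10.5 arrays. Tmem119 averaged 9.93 at E10.5, 10.25 at E12.5, 10.90 at E14.5, 12.92 at E16.5, 13.10 at E18.5, 12.83 at P0 and 15.06 in the adult. Gpr34 averaged 10.09 at E10.5, 11.77 at E12.5, 12.12 at E14.5, 12.57 at E16.5, 12.98 at E18.5, 13.11 at P0 and 14.51 in the adult. P2ry12, which did not pass between brain and yolk sac, averaged 9.61 at E10.5, 11.12 at E12.5, 12.03 at E14.5, 12.53 at E16.5, 12.49 at E18.5, 12.54 at P0 and 14.30 in the adult. Sall1 averaged 7.52 at E10.5, 7.70 at E12.5, 8.94 at E14.5, 10.91 at E16.5, 10.91 at E18.5, 11.13 at P0 and 11.52 in the adult. For each of these genes the step between YSM and E10.5 microglia was smaller than the distance between the E10.5 mean and the adult mean.

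The type I and type II receptors for transforming growth factor beta, a cytokine that microglia need to mature, were higher in the brain. Tgfbr1, of type I, stood at 13.43, 13.38 and 13.45 on the E10.5 arrays, against 12.64, 11.92, 11.98 and 12.26 on the YSM arrays (1.22 ± 0.14, adjusted p = 1.63e-05), with 0.21, 2.10 and 0.30 on its other probes. Tgfbr2, of type II, differed by 0.47 ± 0.11, adjusted p = 0.00597, with 0.42 on its second probe, which did not pass. The co-receptor Tgfbr3 did not pass (0.95 ± 0.37, adjusted p = 0.0778). With 1 array left out its adjusted p lay between 0.00539 and 0.218. The ligand Tgfb1 itself was lower (-0.81 ± 0.23, adjusted p = 0.0158), and this call ended without either E10.5 1 or E10.5 2 (a difference of -0.80 each time, adjusted p between 0.0527 and 0.0549). Ltbp3, which holds latent ligand in the matrix, was also lower, with 5.04 in E10.5 microglia and 6.35 in YSM (adjusted p = 0.00396). No E10.5 array was above background for it, and the bound on its fold came to less than 1. Of 19 measured genes of the pathway 3 were higher and 3 lower (31.6% called, against 19.6% of all genes), with 2 higher and 1 lower without E10.5 2.

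Of 28 measured cytokine and growth factor receptors, 6 were higher and 3 lower (32.1% called, against 19.6% of all genes, median difference 0.16). Counts were 6 higher and 1 lower without YSM 3 or without E10.5 2 and 6 higher and 0 lower without E10.5 1. The interleukin 13 receptor chain Il13ra1 averaged 10.57 ± 0.13 in E10.5 microglia and 9.50 ± 0.36 in YSM (1.07 ± 0.17, adjusted p = 0.000368). The interferon receptor chain Ifnar2 differed by 1.03 ± 0.20, adjusted p = 0.00138. Csf1r, the receptor that macrophages need to survive, averaged 12.86 ± 0.13 in E10.5 microglia and 13.22 ± 0.11 in YSM and did not pass (-0.35 ± 0.13, adjusted p = 0.0534). Every brain array lay below every YSM array. It passed as lower under quantile normalization without background correction, scaling to the 75th percentile, the authors' table and an offset of 50. So it did under a stricter detection filter, the common floor, trended and robust variances and array weights. Its second probe had the opposite sign (0.84, not passing).

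Factors that specify macrophages changed in both directions. Of 29 measured transcription factors 2 were higher, 3 lower and 24 did not pass (17.2% called, against 19.6% of all genes), with a median difference of -0.28. Counts were 1 higher and 2 lower without YSM 3 or without E10.5 1 or without E10.5 3, 1 higher and 5 lower without YSM 4 and 1 higher and 3 lower without E10.5 2. Spi1, which encodes PU.1, the master regulator of the myeloid lineage, stood at 8.71, 8.61 and 8.95 on the E10.5 arrays, against 9.60, 9.40, 9.54 and 9.96 on the YSM arrays (-0.87 ± 0.16, adjusted p = 0.00107), with no overlap. Rxra, a retinoid X receptor, averaged 5.81 in E10.5 microglia and 6.73 in YSM and lay below background on every E10.5 array (at least 1.3-fold lower, adjusted p = 0.00852). Irf8, which acts with PU.1 in macrophages, averaged 10.82 ± 0.16 in E10.5 microglia and 11.30 ± 0.26 in YSM with a difference of -0.49 ± 0.16, adjusted p = 0.0351. The call of Irf8 ended without any one of YSM 1, YSM 2, YSM 3, E10.5 1 and E10.5 3 (differences between -0.49 and -0.41, adjusted p between 0.0522 and 0.136).

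Ets1, another ETS factor, ran the other way, at 10.15, 10.15 and 9.98 on the E10.5 arrays, against 9.26, 8.90, 8.78 and 9.18 on the YSM arrays (1.07 ± 0.14, adjusted p = 5.17e-05). Cd34, a surface sialomucin of progenitors and vessels, was also higher, with a mean of 9.27 ± 0.17 in E10.5 microglia and 8.26 ± 0.31 in YSM (1.00 ± 0.21, adjusted p = 0.00257). Of 13 measured genes of haematopoietic progenitors Cd34 was the 1 that passed (7.69% called, against 19.6% of all genes). For Ptprc, which encodes CD45, the probes disagreed. The brighter gave 2.06 ± 0.41, adjusted p = 0.00191 and the second -1.26, both past the threshold, so that no direction is given for CD45.

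The largest rises came from genes of varied function. Rnf13, a RING finger ubiquitin ligase of endosomes, stood at 7.92, 7.92 and 7.86 on the E10.5 arrays, against 5.69, 6.07, 4.79 and 4.91 on the YSM arrays (2.53 ± 0.24, adjusted p = 2.22e-06), with 1 YSM array above background. Rbbp7, a histone chaperone of chromatin complexes, averaged 10.80 ± 0.42 in E10.5 microglia and 8.69 ± 0.86 in YSM (2.11 ± 0.30, adjusted p = 0.000152), and its other probes gave 2.28, 2.37 and 0.35. Havcr2, which encodes the receptor TIM-3, stood at 8.89, 8.97 and 9.47 on the E10.5 arrays, against 8.10, 6.57, 7.42 and 6.78 on the YSM arrays (1.89 ± 0.28, adjusted p = 0.000172), with 1.36 on its second probe. No YSM array reached the brain arrays in these genes, and YSM 1 was the nearest in Rbbp7 and Havcr2.

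Spsb1, an adaptor of ubiquitin ligases, stood at 9.88, 9.87 and 9.91 on the E10.5 arrays, against 9.21, 7.02, 7.60 and 7.93 on the YSM arrays (1.95 ± 0.32, adjusted p = 0.000484). Among the other large rises were the actin capping protein Capza1 (2.03, adjusted p = 0.000568), the proteasome chaperone Psmd5 (1.94, adjusted p = 5.22e-05), the adenylate cyclase Adcy7 (1.72, adjusted p = 0.00111, with 0.21 and 0.13 on its other probes, neither passing) and the signal recognition particle subunit Srp54a (1.73, adjusted p = 5.1e-05). Ctps2, a CTP synthase, lay below background on every YSM array (at least 1.87-fold higher, adjusted p = 5.1e-05). The retinoic acid-binding protein Crabp1 differed by 1.91 ± 0.36, adjusted p = 0.00133.

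Among genes lower in the brain that were not tissue markers, Csta2, a stefin that inhibits cysteine proteases, was even within each group. It stood at 5.66, 5.53 and 6.02 on the E10.5 arrays, against 7.98, 8.25, 8.24 and 7.41 on the YSM arrays, and with no E10.5 array above background it was at least 3.08-fold lower (adjusted p = 2.21e-08). Pnpt1, a mitochondrial RNA-degrading enzyme, averaged 5.17 in E10.5 microglia and 7.30 in YSM (at least 1.93-fold lower, adjusted p = 1.75e-06). The interferon-inducible Ifi211 averaged 5.03 in E10.5 microglia and 7.11 in YSM (at least 1.69-fold lower, adjusted p = 2.42e-08). The mitochondrial ADP/ATP carrier Slc25a4 averaged 5.37 in E10.5 microglia and 7.43 in YSM (at least 2.12-fold lower, adjusted p = 6.07e-06), and the mitotic inhibitor kinase Wee1 5.10 in E10.5 microglia and 7.04 in YSM (at least 1.62-fold lower, adjusted p = 1.63e-08). All 4 YSM arrays were above background in these genes, except YSM 4 in Slc25a4, and no brain array was.

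Among falls of genes that were detected on all 7 arrays and did not overlap, that of Acta2 was the largest, followed by the RNA-binding protein Rbm14, at 8.33, 8.46 and 8.13 on the E10.5 arrays, against 9.66, 10.12, 10.49 and 10.04 on the YSM arrays (-1.78 ± 0.28, adjusted p = 0.000321). Dmpk, the myotonic dystrophy kinase, stood at 7.10, 6.90 and 7.52 on the E10.5 arrays, against 8.44, 8.70, 8.66 and 9.12 on the YSM arrays (-1.56 ± 0.30, adjusted p = 0.0015). Further falls were those of the annexin Anxa4 (-1.52, adjusted p = 0.00308) and the haematopoietic phosphatase Ptpn7 (-1.50, adjusted p = 2.42e-05). The lectin Clec10a differed by -1.38, and its call ended without any one of YSM 2, YSM 3, E10.5 1, E10.5 2 and E10.5 3 (differences between -1.60 and -0.86, adjusted p between 0.0519 and 0.151). Cavin3, a protein of caveolae, lay below background in the brain (at least 1.33-fold lower, adjusted p = 0.00316). So did Reln, an extracellular matrix glycoprotein (at least 1.28-fold lower, adjusted p = 0.0302), whose call ended without any one of YSM 2, YSM 3, YSM 4, E10.5 1, E10.5 2 and E10.5 3 (adjusted p between 0.0657 and 0.0869) and whose second probe gave 0.23.

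Genes that clear dying cells changed singly. Of 20 measured genes of phagocytosis and efferocytosis 3 were higher and 0 lower (15% called, against 19.6% of all genes), with a median of -0.01. Pros1, the bridging ligand between dying cells and TAM receptors, stood at 11.69, 11.82 and 11.91 on the E10.5 arrays, against 11.44, 11.09, 10.74 and 10.83 on the YSM arrays (0.78 ± 0.15, adjusted p = 0.00156). Elmo1, which links engulfment receptors to Rac, differed by 0.40 ± 0.10, adjusted p = 0.00672. The TAM receptor Mertk differed by 0.83 ± 0.22, adjusted p = 0.0136, and its call ended without any one of YSM 3 and E10.5 3 (differences between 0.68 and 0.70, adjusted p between 0.0537 and 0.0722).

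The receptor of bacterial ribosomal RNA, Tlr13, stood at 9.36, 9.42 and 9.93 on the E10.5 arrays, against 8.84, 8.92, 8.58 and 8.68 on the YSM arrays (0.82 ± 0.13, adjusted p = 0.000462), with no overlap. Of 24 measured Toll-like receptors and adaptors 4 were higher and 2 lower (25% called, against 19.6% of all genes). Counts were 4 higher and 4 lower without YSM 2, 3 higher and 0 lower without YSM 3 and 4 higher and 1 lower without YSM 4. They were 4 higher and 0 lower without E10.5 1, 2 higher and 0 lower without E10.5 2 and 1 higher and 2 lower without E10.5 3. The collagen receptor Lair1 was higher (1.03 ± 0.17, adjusted p = 0.000568, with 1 of its other 2 probes in the opposite direction), and the paired receptor Pilrb1 was lower (-1.24 ± 0.29, adjusted p = 0.00505). Of 22 measured chemoattractant and purine receptors 3 were higher and 0 lower (13.6% called, against 19.6% of all genes). Among the 3 were P2ry13 and the leukotriene receptor Cysltr1 (0.58 ± 0.13, adjusted p = 0.0032).

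Of 18 measured chemokine ligands limma called 0 (1 lower at an unadjusted p under 0.05), with a median difference of -0.60. The 7 arrays alone and array weights each called 1 lower. Of 18 inflammatory cytokines and regulators 2 were lower, or 11.1%, against 9.51% of all genes, with 0 higher and 1 lower without YSM 3 or without E10.5 1 or without E10.5 2 or without E10.5 3. Ptgs2, the inducible cyclooxygenase, averaged 5.18 in E10.5 microglia and 6.74 in YSM (at least 1.31-fold lower, adjusted p = 0.000189). Il6 averaged 5.80 in E10.5 microglia and 6.95 in YSM (at least 1.51-fold lower, adjusted p = 0.0297), and its call ended without any one of YSM 3, YSM 4, E10.5 1, E10.5 2 and E10.5 3 (adjusted p between 0.0511 and 0.0979). Of 29 immediate early genes 2 were higher and 2 lower (13.8% called, against 19.6% of all genes). Counts were 2 higher and 1 lower without YSM 1, 1 higher and 1 lower without YSM 3 or without E10.5 1 or without E10.5 3 and 1 higher and 3 lower without YSM 4. Klf10, a factor induced by transforming growth factor beta, stood at 7.62, 7.74 and 7.91 on the E10.5 arrays, against 6.27, 6.09, 5.96 and 7.01 on the YSM arrays (1.42 ± 0.24, adjusted p = 0.000579), whereas the antiproliferative Btg2 averaged 4.94 in E10.5 microglia and 6.45 in YSM (at least 1.07-fold lower, adjusted p = 0.0156), a call that ended without E10.5 3 (adjusted p = 0.0508).

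Of 28 measured interferon-response genes 1 was higher and 2 lower (10.7% called, against 19.6% of all genes). Counts were 1 higher and 4 lower without YSM 1 and 1 higher and 1 lower without YSM 3 or without YSM 4 or without E10.5 1 or without E10.5 3. The guanylate-binding protein Gbp3 rose (0.98 ± 0.19, adjusted p = 0.00131), and so did the immunoproteasome subunit Psmb8 (0.90 ± 0.19, adjusted p = 0.00287), with 1.06 on its second probe. Complement genes included 3 falls and 0 rises of 14 measured (21.4% called, against 19.6% of all genes), with 0 higher and 1 lower without E10.5 1 or without E10.5 2 or without E10.5 3. Among the falls was the integrin chain Itgb2 of complement receptor 3 (-0.92 ± 0.22, adjusted p = 0.00651).

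Some genes of the early embryo were lower in the brain. Of 16 measured fetal and imprinted genes 4 were lower and 0 higher (25% called, against 19.6% of all genes). Lin28a, which blocks maturation of let-7 microRNAs, stood at 7.09, 7.36 and 7.05 on the E10.5 arrays, against 7.85, 8.47, 8.52 and 8.40 on the YSM arrays (-1.14 ± 0.14, adjusted p = 4.93e-05), with -0.34 on its second probe, which did not pass. Its relative Lin28b stood at 8.99, 9.21 and 8.64 on the E10.5 arrays, against 9.77, 9.81, 10.24 and 9.86 on the YSM arrays (-0.97 ± 0.16, adjusted p = 0.000551). On the probes in use, every YSM array was above every brain array in both. Trim71, a tripartite motif ubiquitin ligase of early embryos, averaged 5.55 in E10.5 microglia and 6.80 in YSM (at least 1.36-fold lower, adjusted p = 0.0002).

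The other falls of this list were on the arrays with high endoderm markers. The imprinted gene Phlda2 stood at 4.85, 5.03 and 6.85 on the E10.5 arrays, against 5.85, 10.63, 8.39 and 9.21 on the YSM arrays (-2.95 ± 0.66, adjusted p = 0.00416). Dlk1, an imprinted Notch ligand, differed by -2.01 ± 0.69, adjusted p = 0.047, and its call ended without any one of YSM 2, YSM 3, YSM 4, E10.5 1, E10.5 2 and E10.5 3 (differences between -2.24 and -1.47, adjusted p between 0.0692 and 0.172). Lin28b averaged 8.95 at E10.5, 7.42 at E12.5, 6.52 at E14.5, 5.60 at E16.5, 5.13 at E18.5, 5.31 at P0 and 4.64 in the adult.

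Cell cycle genes were called in both directions. Of 26 measured DNA replication genes 2 were higher and 2 lower (15.4% called, against 19.6% of all genes). Counts were 1 higher and 2 lower without YSM 3 or without E10.5 1 or without E10.5 2 and 1 higher and 1 lower without E10.5 3. Of 20 mitosis genes 2 were higher and 2 lower (20% called), with 3 higher and 1 lower without YSM 1 and 2 higher and 1 lower without YSM 2. Counts were 1 higher and 2 lower without YSM 3 or without E10.5 2 and 1 higher and 1 lower without E10.5 1 or without E10.5 3. Of 21 cyclins, E2F factors and inhibitors 3 were higher and 1 lower (19% called), with 1 higher and 0 lower without YSM 3. Ccne2, a cyclin of the entry into S phase, stood at 8.92, 8.94 and 8.61 on the E10.5 arrays, against 7.57, 7.93, 6.59 and 7.87 on the YSM arrays (1.33 ± 0.25, adjusted p = 0.00131). The helicase subunit Mcm3 (1.00 ± 0.20, adjusted p = 0.00213) and the topoisomerase Top2a (0.78 ± 0.20, adjusted p = 0.00889) were higher, and the mitotic ubiquitin-conjugating enzyme Ube2c was lower (-0.97 ± 0.20, adjusted p = 0.00257). The sliding clamp Pcna was lower (-0.90 ± 0.24, adjusted p = 0.0135), a call that ended without E10.5 3 (-0.80, adjusted p = 0.0612).

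Metabolic genes differed in both directions. Hif1a, the oxygen-sensitive factor of the hypoxia response, stood at 8.11, 8.22 and 7.95 on the E10.5 arrays, against 7.12, 6.95, 5.01 and 5.36 on the YSM arrays (1.98 ± 0.39, adjusted p = 0.00167), with YSM 3 and YSM 4 far below YSM 1 and YSM 2. Of 14 measured hypoxia genes 4 were higher and 0 lower (28.6% called, against 19.6% of all genes). Counts were 1 higher and 0 lower without YSM 3 or without E10.5 2, 2 higher and 1 lower without YSM 4 or without E10.5 3 and 2 higher and 0 lower without E10.5 1. In sterol and lipid synthesis 5 of 21 genes were higher and 1 lower (28.6% called), with 3 higher and 1 lower without YSM 3 or without E10.5 1 or without E10.5 2. The stearoyl-CoA desaturase Scd2 (2.02 ± 0.33, adjusted p = 0.000413) and the sterol demethylase Cyp51 (1.23 ± 0.19, adjusted p = 0.000363) rose, Idi1 of the isoprenoid pathway fell (-0.73 ± 0.16, adjusted p = 0.00297), and Nsdhl gave 1.51 ± 0.35, adjusted p = 0.00506 with 1 of its other 3 probes in the opposite direction.

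In the respiratory chain 2 of 32 genes were higher and 6 lower (25% called, against 19.6% of all genes). Counts were 3 higher and 3 lower without YSM 1, 1 higher and 3 lower without YSM 3 or without E10.5 1, 1 higher and 4 lower without E10.5 2 and 2 higher and 2 lower without E10.5 3. The cytochrome oxidase subunit Cox7b stood at 8.53, 8.16 and 8.12 on the E10.5 arrays, against 9.47, 9.73, 9.77 and 9.13 on the YSM arrays (-1.26 ± 0.26, adjusted p = 0.00228). The ATP synthase subunit Atp5a1 was lower too (-0.85 ± 0.18, adjusted p = 0.00309), whereas the complex I subunit Ndufb3 was higher (0.66 ± 0.13, adjusted p = 0.00205). Of 26 antioxidant genes 4 were lower and 1 higher (19.2% called). Among them were the thioredoxin reductase Txnrd1 (-0.99 ± 0.20, adjusted p = 0.00181) and the glutathione transferase Gstm1 (-1.21 ± 0.28, adjusted p = 0.00568) on the lower side and the peroxiredoxin Prdx3 (0.77 ± 0.15, adjusted p = 0.00197) on the higher.

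Among 22 genes of amino acid and stress metabolism, 7 were lower and 3 higher (45.5% called, against 19.6% of all genes). Glutamine synthetase, Glul, stood at 7.40, 7.52 and 7.57 on the E10.5 arrays, against 8.68, 9.05, 9.01 and 8.61 on the YSM arrays (-1.34 ± 0.23, adjusted p = 0.000629). Slc3a2, the heavy chain of amino acid transporters (-1.15 ± 0.24, adjusted p = 0.00271), and the stress pseudokinase Trib3 (-1.33 ± 0.30, adjusted p = 0.00396) were lower as well. Neighbouring enzymes of the arginine route parted. The argininosuccinate synthase Ass1 averaged 5.30 in E10.5 microglia and 7.48 in YSM (at least 2.19-fold lower, adjusted p = 0.0021), with its highest value, 9.06, on YSM 2, the array with the most endoderm signal. The lyase Asl was higher (1.15 ± 0.28, adjusted p = 0.00692), with YSM 3 at 4.94. Arg1, arginase, was above background on 1 E10.5 array and on no YSM array (at least 1.08-fold higher, adjusted p = 0.0133), a call that ended without E10.5 3 (adjusted p = 0.0742), and its second probe gave -0.20.

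Adhesion and cytoskeletal genes also moved singly. F11r stood at 9.26, 9.35 and 9.57 on the E10.5 arrays, against 8.46, 7.36, 7.19 and 7.94 on the YSM arrays (1.65 ± 0.25, adjusted p = 0.0002), with all brain arrays above all YSM arrays. Itga5, the fibronectin receptor chain, stood at 7.02, 7.35 and 7.29 on the E10.5 arrays, against 8.63, 8.35, 8.76 and 9.19 on the YSM arrays (-1.51 ± 0.26, adjusted p = 0.000602), with -1.30 on its second probe. Of 27 measured integrins and adhesion genes 2 were higher and 6 lower (29.6% called, against 19.6% of all genes). Counts were 3 higher and 3 lower without YSM 3 and 2 higher and 3 lower without E10.5 1. Nckap1l, the haematopoietic subunit of the WAVE complex, was higher (0.49 ± 0.10, adjusted p = 0.00207), and Plek, a protein kinase C substrate of platelets and leukocytes, was lower (-0.82 ± 0.13, adjusted p = 0.000307). Profilin, Pfn1, gave -1.15 ± 0.24, adjusted p = 0.00275, but 0.10 on its second probe, which did not pass.

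Splicing factors were called in both directions. Of 38 measured members 8 were higher and 3 lower (median difference 0.10), against 10% and 9.51% of all genes, with 6 higher and 1 lower without E10.5 2 and 7 higher and 1 lower without E10.5 3. Hnrnpf stood at 9.71, 9.85 and 9.49 on the E10.5 arrays, against 8.38, 8.42, 7.13 and 7.36 on the YSM arrays (1.86 ± 0.27, adjusted p = 0.000159). Hnrnpk (1.68 ± 0.25, adjusted p = 0.000239), Tra2b (1.70 ± 0.26, adjusted p = 0.000305) and Srsf10 (1.40 ± 0.25, adjusted p = 0.000773) also rose and had their lowest values on YSM 3 or YSM 4. Hnrnpd fell (-1.14 ± 0.19, adjusted p = 0.000462). The probes of Hnrnpa2b1 disagreed, with 1.83 ± 0.23, adjusted p = 5.1e-05 on the brightest and -0.69, called lower, on the second. Hnrnpk and Srsf10 also had other probes of the opposite sign that were not called. Of 47 chromatin regulators 6 were higher and 8 lower (29.8% called, against 19.6% of all genes). Counts were 4 higher and 4 lower without YSM 3 and 5 higher and 4 lower without E10.5 1 or without E10.5 3. The Polycomb subunit Bmi1 rose (1.68 ± 0.27, adjusted p = 0.000442).

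**Figure D4:**
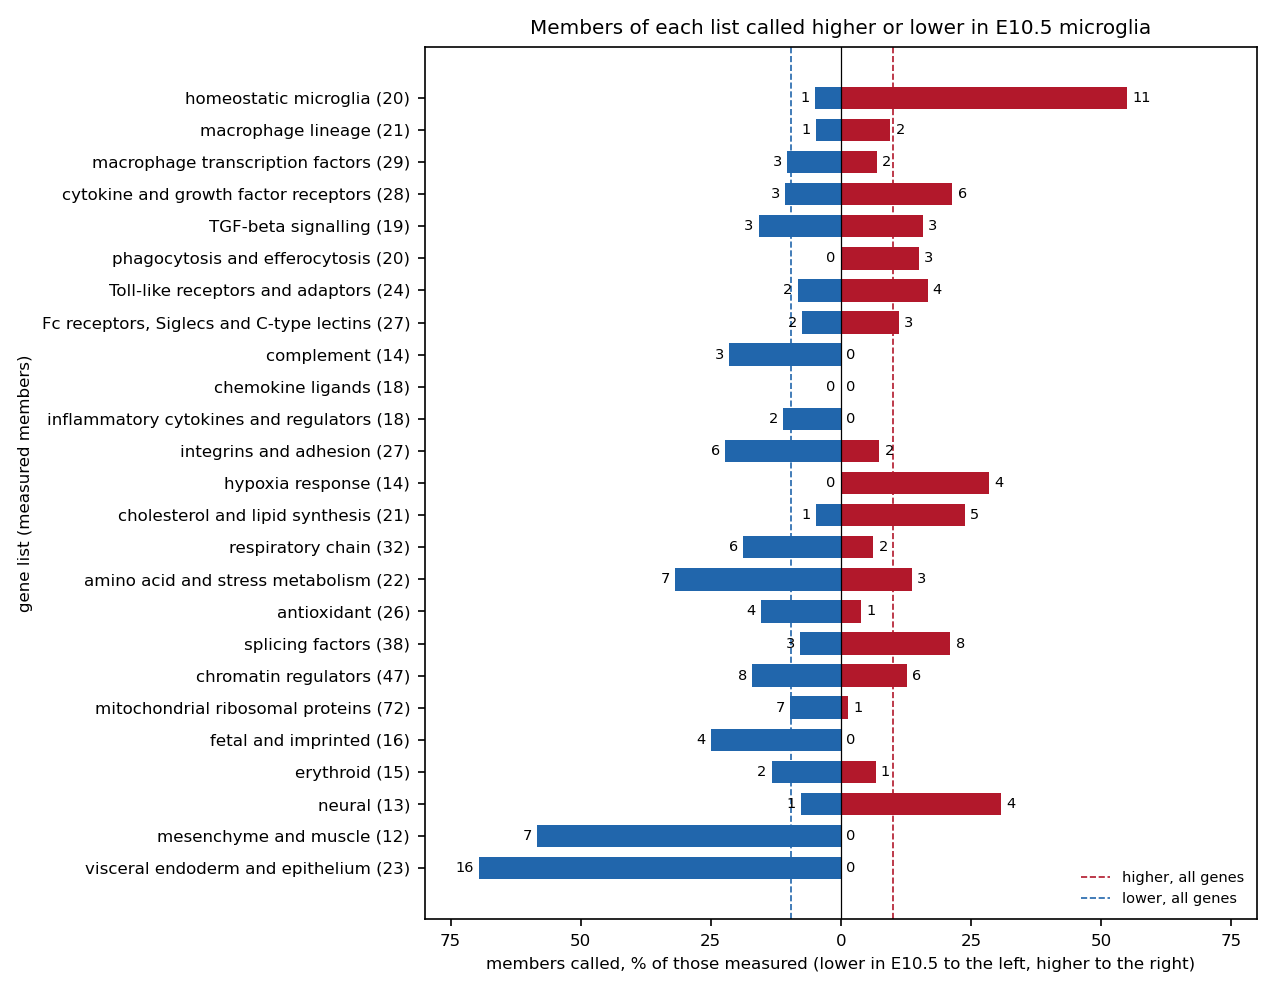
Share of the measured members of selected gene lists called higher (red, to the right) or lower (blue, to the left) in E10.5 microglia, in percent, with the number of genes beside each bar and the shares over all genes as dashed lines (10% higher and 9.51% lower). Homeostatic microglia genes had 11 rises of 20, whereas visceral endoderm genes had 16 falls of 23.

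The deepest falls among the lists counted were those of visceral endoderm, the secretory epithelium of the yolk sac. Of 23 measured genes 16 were lower and 0 higher (69.6% called, against 19.6% of all genes), with a median difference of -2.27. Afp stood at 4.57, 4.57 and 8.24 on the E10.5 arrays, against 6.23, 12.67, 9.98 and 10.46 on the YSM arrays (-4.05 ± 0.95, adjusted p = 0.0056), and the trypsin inhibitor Spink1 at 4.99, 4.70 and 8.34 on the E10.5 arrays, against 7.01, 12.49, 10.23 and 10.76 on the YSM arrays (-4.11 ± 0.85, adjusted p = 0.00231). YSM 1 lay below the brain array E10.5 3 in both genes. Against YSM 1 alone the median difference of the list was 0.04, against -4.26 for YSM 2, -1.99 for YSM 3 and -2.71 for YSM 4.

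The endocytic receptor subunits Amn (-3.35 ± 0.77, adjusted p = 0.00483) and Cubn (at least 2.52-fold lower, adjusted p = 0.00889), the fibrinogen chain Fga (at least 3.61-fold lower, adjusted p = 0.00674) and Apoa1 (-3.78 ± 1.13, adjusted p = 0.0242) followed the same arrays. In each of them YSM 1 lay below E10.5 3, with 4.59 against 5.19 in Cubn and 5.63 against 6.41 in Fga. The bounds of Cubn and Fga are on the group means and do not hold for each array. The call of Apoa1 ended without any one of YSM 2, YSM 3, YSM 4, E10.5 1 and E10.5 2 (differences between -3.71 and -2.69, adjusted p between 0.0552 and 0.119). Foxa3, an endoderm transcription factor (at least 1.79-fold lower, adjusted p = 0.000828), the keratin Krt18 (at least 2.15-fold lower, adjusted p = 0.000402) and villin, Vil1 (at least 1.43-fold lower, adjusted p = 0.00326), lay below background on all brain arrays, and YSM 1 was below background in them too. Without YSM 1 the list had 20 falls, and without E10.5 2 it had 10. The 7 arrays processed alone and the Tukey comparison each called 0 of its members.

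Mesenchyme and red cell genes showed the same unevenness. Of 12 measured mesenchyme and muscle genes 7 were lower (58.3% called, against 19.6% of all genes, median difference -1.34). Counts were 0 higher and 2 lower without YSM 2, 0 higher and 1 lower without YSM 3 or without E10.5 1 and 0 higher and 3 lower without E10.5 2 or without E10.5 3. The common floor left 1 lower and the Tukey comparison 0. Acta2, smooth muscle actin, stood at 7.49, 6.68 and 7.80 on the E10.5 arrays, against 8.15, 10.88, 11.80 and 8.85 on the YSM arrays (-2.60 ± 0.79, adjusted p = 0.0261), and its call ended without any one of YSM 2, YSM 3, E10.5 1 and E10.5 2 (differences between -2.68 and -1.97, adjusted p between 0.0639 and 0.106). Col3a1, a fibrillar collagen, averaged 5.01 in E10.5 microglia and 7.50 in YSM (at least 2.22-fold lower, adjusted p = 0.0181), and its call ended without any one of YSM 2, YSM 3, E10.5 1 and E10.5 2 (adjusted p between 0.052 and 0.0636). Its YSM values were 5.12, 8.77, 9.88 and 6.23, with 2 arrays above background and YSM 1 below E10.5 3 (5.28). The bound for Col3a1 is on the group means and does not hold for each array. Of 15 measured red cell genes 2 were lower and 1 higher (20% called), but without YSM 1 10 were lower. Klf1, the erythroid master factor, stood at 5.11, 4.86 and 5.41 on the E10.5 arrays, against 5.43, 7.54, 7.63 and 7.53 on the YSM arrays (at least 1.6-fold lower, adjusted p = 0.00223), and the mitochondrial iron importer Slc25a37 at 8.98, 8.75 and 9.21 on the E10.5 arrays, against 9.49, 10.22, 10.33 and 10.25 on the YSM arrays (-1.09 ± 0.27, adjusted p = 0.00815), with YSM 1 apart from the other YSM arrays in both. Their part in the other differences was not tested.

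A few neuronal transcripts were higher in the sorted brain cells. Of 13 measured neural genes 4 were higher and 1 lower (38.5% called, against 19.6% of all genes, median difference 0.66). Counts were 2 higher and 0 lower without YSM 1 or without YSM 3 and 2 higher and 1 lower without E10.5 2 or without E10.5 3. The microtubule regulator Stmn2 stood at 6.64, 7.06 and 7.03 on the E10.5 arrays, against 5.64, 4.61, 4.79 and 5.77 on the YSM arrays, with no YSM array above background (at least 1.58-fold higher, adjusted p = 0.00907). The call of Stmn2 ended under the Tukey comparison, the common floor, scaling to the 75th percentile, the authors' table and quantile normalization without background correction. The transcription factor Ebf3 was at least 2.16-fold higher (adjusted p = 0.00111), with 0.24 on its second probe, which did not pass, and its call ended under the common floor and the Tukey comparison. The factor Sox11 stood at 8.98, 9.46 and 9.41 on the E10.5 arrays, against 6.04, 8.25, 8.01 and 8.21 on the YSM arrays (1.66 ± 0.55, adjusted p = 0.0411), with YSM 1 low, and its call ended without any one of YSM 1, YSM 3, E10.5 1, E10.5 2 and E10.5 3 (differences between 1.13 and 1.81, adjusted p between 0.0575 and 0.118). The summed level of 3 defining neural markers was 623 to 717 on the E10.5 arrays and 575 to 830 on the YSM arrays. Of these 3 markers 2 or 3 were above background on each E10.5 array and 1 on each YSM array, and their mean log2 level lay between 7.05 and 7.52 on the E10.5 arrays and between 6.31 and 6.86 on the YSM arrays, with no overlap. Stmn2 is 1 of these 3 markers and the only 1 called higher. The counts and means therefore partly repeat its call and do not stand for the other markers. Whether neural RNA carried over in the sort takes part in these differences was not tested.

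Genes that the study names for its stages were few among the calls. Plxna2, a semaphorin receptor, stood at 5.32, 5.97 and 5.40 on the E10.5 arrays, against 6.42, 6.78, 6.89 and 6.95 on the YSM arrays and was at least 1.33-fold lower in E10.5 microglia (adjusted p = 0.000239). Under the common floor its difference was -0.094 and the call ended. The chemokine receptor Cxcr4 varied more within than between groups, at 7.71, 6.09 and 7.94 on the E10.5 arrays, against 8.54, 7.55, 7.72 and 5.73 on the YSM arrays (-0.14 ± 0.68, adjusted p = 0.922). Klf9 (-0.91 ± 0.39, adjusted p = 0.106), E2f6 (0.05 ± 0.15, adjusted p = 0.843), Igf1 (-0.16 ± 0.20, adjusted p = 0.626) and Jun (-0.44 ± 0.22, adjusted p = 0.158) did not pass. Klf9 passed as lower under array weights, and with 1 array left out its adjusted p lay between 0.0179 and 0.271.

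Agreement between probes of a gene was limited. Of 812 called genes with a second kept probe, the second had the same sign in 565 (69.6%), against 58.5% of the genes that did not pass, and it was itself called the same way in 260 and the opposite way in 47. Of the 115 genes named here that were called, 38 had another kept probe, and in 27 every other probe had the same sign. Beside the genes given above, the second probe did not pass in Asl (0.76), Atp5a1 (-0.33), Elmo1 (0.69), Gbp3 (0.46), Hnrnpd (-0.30), Ifnar2 (0.25), Lair1 (0.48), Sall3 (-0.06), Sox11 (0.51), Tlr13 (0.33) and Top2a (0.22).

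**Figure D5:**
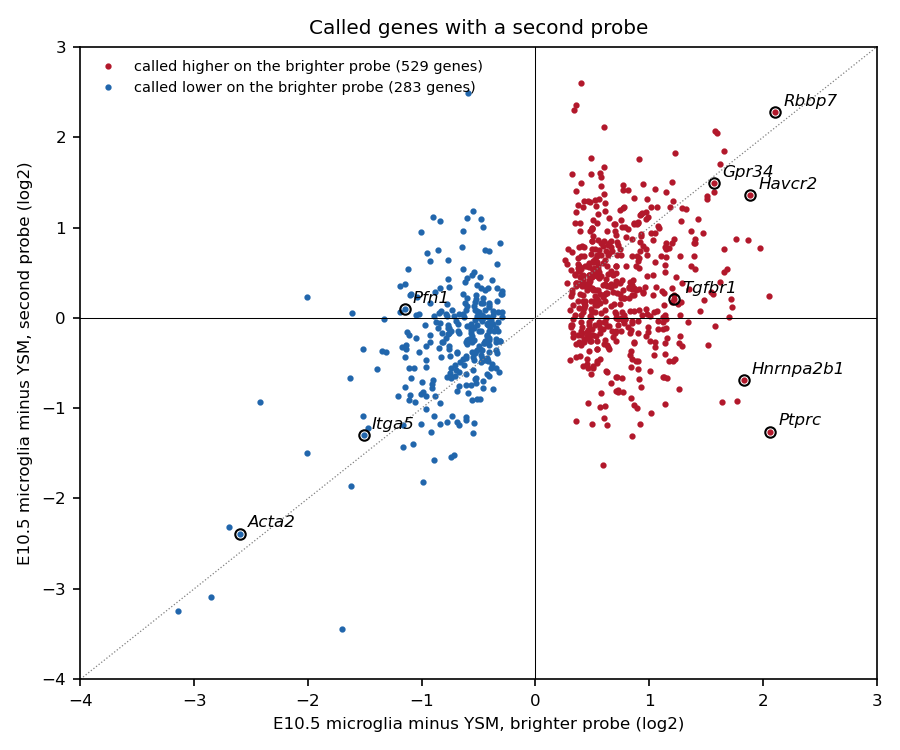
Difference on the second probe against that on the brighter probe (E10.5 microglia minus YSM, log2) for the 812 called genes with a second kept probe, red for genes called higher and blue for genes called lower, with equality as a dotted line. Gpr34, Havcr2, Rbbp7, Itga5 and Acta2 lay near the line, whereas Ptprc and Hnrnpa2b1 had opposite signs.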

How the data were processed

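RNA of macrophages sorted from pooled brains or yolk sacs was hybridised to Illumina mouse WG-6 bead arrays. The authors read the arrays in GenomeStudio and deposited each probe's uncorrected signal as a linear intensity. A detection p-value, the rank of that signal among the array's negative controls, was deposited with it. A second table of intensity values, quantile-normalized in lumi by the authors, served as an alternative. No source used here gives the versions of these tools. In 28 columns, 3 adult ones repeated others exactly, so 25 arrays remained. YSM columns could not be tied to the labels' replicate numbers, and numbers here only name arrays. Each YSM column is headed by its own date, different from the others, whereas the E10.5 brain columns carry none. What the dates stand for is not stated, and their part in the differences was not tested.

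The neqc function of limma removed background, added an offset of 16, quantile-normalized the 25 arrays and gave log2 values. Of 45281 probes, 34885 had 1 gene symbol in the annotation, 18 had several and 10378 had none, and genes were named only from probes with 1. A probe entered with a detection p below 0.01 on 3 or more arrays (19789 probes), and each of 10630 genes was read from its brightest such probe. One limma fit (version 3.58.1, R 4.3.3) gave every group its own mean over the 25 arrays, with 17 residual degrees of freedom, and Benjamini-Hochberg adjustment ran over all genes. These p-values measure the spread between arrays of pooled animals, and the number of arrays limits the precision (median standard error 0.19). In simulated data of 10630 genes, 61.2% of changes of 1 log2 unit and 95.5% of 2 units were called. The simulation used normal errors with the same spread in every group and changed far fewer genes than were called here. Its rates need not hold for this comparison.

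Where a group lay below background on every array, the fold is a bound, the mean of the detected group over the higher, per array, of the lowest detected signal and the gene's own. No bound is given under 1. The members, arrays and gene lists were chosen with earlier results of these data known, and lists were counted, not tested. Named genes are the 12 largest rises and falls whose groups did not overlap, the 10 largest each way among genes detected on all 7 arrays, up to 6 called members of a list, further list members described by their role, and genes the study names for its stages. Some genes under these rules are not reported here. The alternatives were other scalings, offsets, filters, a floor, variance models, the methods' ANOVA with Tukey's comparison, a replicate block, second probes, and leaving out each array. Promoters came from RefSeq tables (GRCm38.p6).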

Additional observations from a re-analysis of the deposited data

Results flagged for a closer look

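In the 4 YSM arrays, single arrays stood apart from the others, by a gap to the nearest array that took up nearly the whole range, in 7 of the 125 named genes and in 2 sums of markers. Chance alone sets about 1 in 20 such groups apart. In all, 137 values were tested and 9 set apart, a share near that of chance. YSM 1 was the lowest in Klf1 (5.43, the next array 7.53), Slc25a37 (9.49, next 10.22), Reln (4.88, next 7.23) and Sox11 (6.04, next 8.01), and in the sum of red cell markers (3570, next 76700). YSM 3 was the lowest in Asl (4.94, next 6.30) and the highest in Txnrd1 (8.74, next 8.54) and Wee1 (7.43, next 6.95). YSM 4 was the lowest in the sum of macrophage markers (28600, next 34200). The calls of Klf1, Slc25a37, Asl, Txnrd1 and Wee1 held without these arrays.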

How the results depend on the processing

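The count of called genes (2079; 1068 higher, 1011 lower) moved by over 1.5 times when the 7 arrays were processed alone (1129; 506 and 623, with 8938 genes), under the methods' ANOVA with Tukey's comparison (398; 225 and 173), without a detection filter in the higher direction (1605, with 19057 genes) and with a 1.5-fold minimum in the higher direction (698). With 1 array left out, 1249 to 2217 genes were called, 669 to 1120 higher and 580 to 1097 lower. In no other scaling or variance model did the difference of a called gene change sign or vanish, except in 30 genes with the 7 arrays alone, 2 without the filter and 83 under a common floor. The count for the common floor includes differences that vanished, such as that of Slc2a5. With the 7 arrays alone and without the filter, a gene could be read from another probe. Replicate numbers 1 to 3 were not stated to pair brain and yolk sac, and deviations of same-numbered samples did not correlate (-0.20, -0.04 and -0.04). In the 6 numbered samples of the authors' table the fit with the replicate block called 0 genes (2446 at an unadjusted p under 0.05), and the fit with no block 628 (328 higher, 300 lower). Signs turned on a second probe in Arg1 (-0.20), Csf1r (0.84), Hnrnpa2b1 (-0.69), Igf1 (0.22), P2ry12 (0.041), Pfn1 (0.10), Ptprc (-1.26), Reln (0.23), Sall1 (-0.019) and Sall3 (-0.06), with the 7 arrays alone in Nsdhl (-0.12) and Ptprc (-1.45), under the common floor in Tgfbr3 (-0.003), without YSM 1 in Cxcr4 (0.25), and without E10.5 2 in Cxcr4 (0.44) and Igf1 (0.14). With the 7 arrays alone each gene's brightest probe was chosen anew. The values of Nsdhl and Ptprc there lay near those of another probe of each gene in the full set of arrays (-0.13 and -1.26). With 1 array left out, Cxcr4 lay between -0.69 and 0.44 and Igf1 between -0.39 and 0.14. The differences against each YSM array alone and the counts of extreme arrays were added after seeing the data. Signal over background limited the 979 genes below background in both groups.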
